A study of Komagataella phaffii with 12 samples.

Results

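The comparison described here is the return of wild-type Komagataella phaffii from slow to fast growth, followed through the open chromatin regions of 4 FAIRE-Seq peak lists. The 4 lists are the wild-type lists of these stages by label, with no measured value in the rule, and they hold 1287 of the 3337 regions called in the 12 lists of the series. The strain was CBS7435 with the genotype Wild type in every library, grown in glucose-limited chemostats. The slow libraries (replicates 1 and 2) came from steady state at a specific growth rate of 0.05 per hour. The switchback libraries (replicates 1 and 2) came from steady state at 0.1 per hour, reached by raising the rate again after the slow stage, and both stages were held for 5 residence times. Residence time is the time needed to replace the culture volume. A chemostat passed through the stages in turn, so a slow and a switchback library may come from the same culture, but the labels do not say which. The strain without FLO8 and its input were left out. The wild-type lists of the initial fast stage and the wild-type input list were consulted only as further readouts at the loci found.

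FAIRE, the formaldehyde-assisted isolation of regulatory elements, recovers DNA that is not tightly crosslinked to nucleosomes, which in yeasts lies mostly in promoters and other intergenic regulatory stretches. K. phaffii is a methylotrophic budding yeast used for protein production, and it takes on an elongated, pseudohyphal form when glucose limitation holds it at low growth rates. In Saccharomyces cerevisiae, the comparable switch depends on cell-surface flocculins of the FLO family, several of which lie near chromosome ends and are silenced through chromatin. The switchback stage asked which regions opened or closed at slow growth stay so once the cells grow fast again. A culture can be a mixture of ovoid and elongated cells, and a locus open in fewer cells cannot be told apart from a locus less open in every cell. The gene annotation at hand belongs to another strain, GS115, with 0 of its 5040 genes under a CBS7435 locus tag, so regions are given by position and genes were not placed. Positions follow the authors' lists, with the first base of a chromosome as 1, and the version of their CBS7435 genome is not given in the sources used here.

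The amount of chromatin called open differed more between the slow replicates than between the stages. The slow lists held 203 and 382 peaks and the switchback lists 356 and 346. Slow replicate 1 was thus far shorter than the other 3 lists, and slow replicate 2 was the longest. The mean was 292.5 ± 127 peaks (SD, n = 2) at slow growth and 351 ± 7.07 (SD, n = 2) after the return, a difference of 0.33 on the log2 scale (exact two-sided permutation test over libraries, p = 1). Without slow replicate 1 the sign turned, to −0.12. Peaks covered 243 and 407 kb in the slow lists and 351 and 352 kb in the switchback lists, a difference of 0.16 (exact permutation p = 1), or −0.21 without slow replicate 1. The median peak was 1043 and 962 bp wide at slow growth and 919 and 933 bp wide after the return. Both switchback medians lay below both slow medians, with a difference of −0.11 on the log2 scale (exact permutation p = 0.333, adjusted p = 1 over 3 tests). With 2 libraries against 2 the smallest p is 0.333, so no quantity could pass 0.05. The lowest score of a list lay between 150.2 and 150.6 in all 4 lists. The lists give no read counts, so the depth of a library, is unknown, and why slow replicate 1 was short was not tested.

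**Figure D1:**
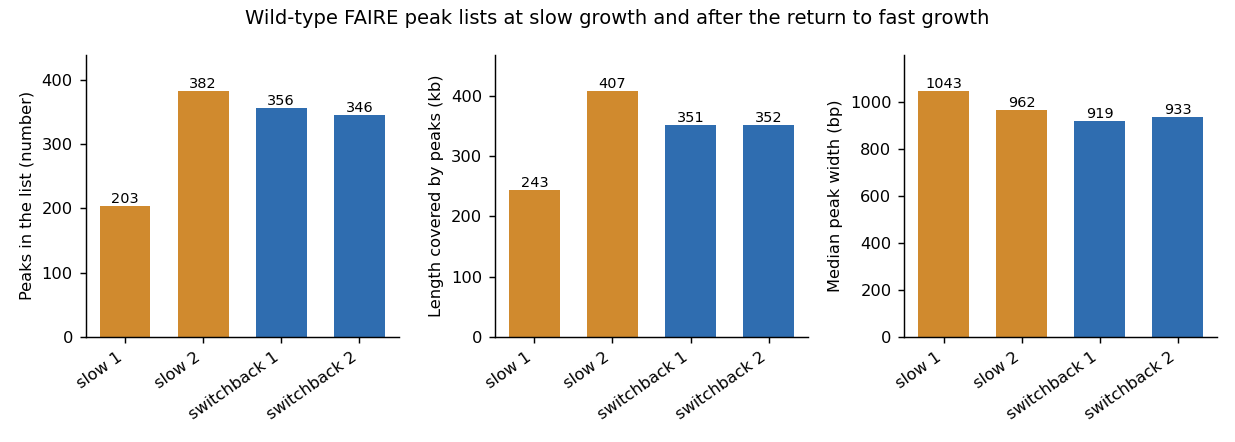
Number of peaks, length covered by peaks (kb) and median peak width (bp) in each of the 4 wild-type lists, 1 bar a library, orange for slow growth and blue for the return to fast growth. Slow replicate 1 (203 peaks, 243 kb) stands below the other 3 lists, which hold 346 to 382 peaks.

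Most regions of high score were open at both growth rates. Overlapping peaks of the 4 lists, by 1 bp or more, were joined, which gave 484 loci. Of these, 163 (33.7% of all loci) had a peak in all 4 lists and are called kept. A further 18 (3.72%) had a peak in both switchback lists and in no slow list, called gained, and 8 (1.65%) had a peak in both slow lists and in no switchback list, called lost. The largest remaining class, 92 loci, was missing from slow replicate 1 only, and 124 loci were held by a single list. At any single locus the smallest two-sided Fisher's exact p for 2 lists against 2 is 0.333, so gained, lost and kept are counts without a test. The loci missing from slow replicate 1 only show how the short list weighs on these classes. Without that library the kept loci numbered 255 and the lost loci 56. Without slow replicate 2 the gained loci numbered 110 in place of 18. Taking away a library removes a condition, so each of these counts could only grow or stay.

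**Figure D2:**
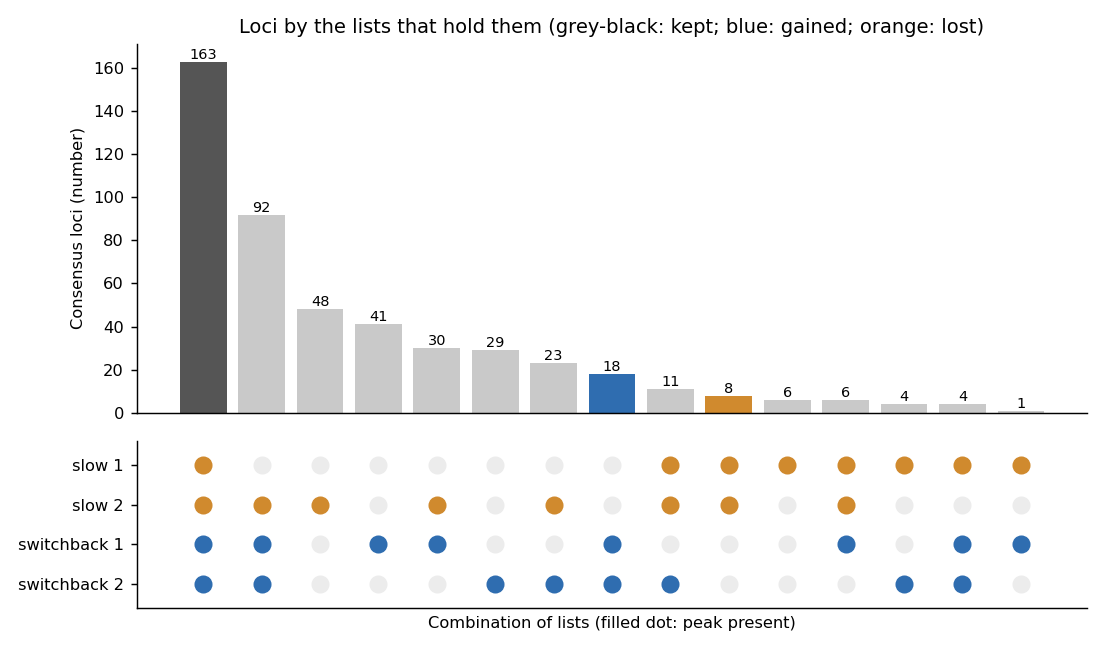
Number of consensus loci (bars) for each combination of lists that hold a peak (filled dots below, 1 row a library). The 163 kept loci are dark grey, the 18 gained loci blue and the 8 lost loci orange, and the second highest bar (92) is the class missing from slow replicate 1 only.

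The lists of different stages shared about as many of their best peaks as the lists of the same stage. With the 203 top-scoring peaks of each list, 77.3% of the peaks of slow replicate 1 overlapped a peak of slow replicate 2, and 78.8% of those of switchback replicate 1 overlapped one of switchback replicate 2. In the 4 comparisons across stages the share lay between 73.9% and 77.8%. The order of the kept loci by score was most alike in the slow pair, in spite of the unequal length of the lists. Spearman's rho over the 163 kept loci was 0.849 for the slow pair, 0.743 for the switchback pair and between 0.693 and 0.762 across stages. These values are a description across loci, which share their libraries and their sequence. Ranked among the kept loci only, a locus differed by a median of 13 places between the slow replicates, by 13 between the switchback replicates and by 16 to 19 across stages.

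Gained loci were mostly weak peaks near the end of the list. Their median rank by score was 279.5 of 356 in switchback replicate 1 and 278.5 of 346 in replicate 2, where rank 1 is the highest score. In 13 of the 18 loci both ranks lay in the lower-scoring 50% of the list, and in 7 both scores were under 200. They were spread over the chromosomes, 5 on chromosome 1, 4 each on chromosomes 2 and 3 and 5 on chromosome 4. Of the 18, 0 overlapped a region of the wild-type input list, but only 17 of all 484 loci did. Consensus width ran from 727 to 1450 bp. The leading gained locus lay on chromosome 4 from 1745213 to 1746662, with scores of 338 and 339 and ranks of 131 and 130. It was the only gained locus in the higher-scoring 50% of both switchback lists, and its replicates were nearly equal.

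Some other gained loci of good rank owed it to a single replicate. On chromosome 2 from 1058172 to 1059349 the scores were 608 and 207, at ranks 52 and 246. At the locus on chromosome 1 from 782826 to 784105 the order of the replicates was the opposite, with scores of 164 and 548 at ranks 327 and 60. At both loci the replicates of the same stage were thus far apart. The locus on chromosome 1 from 216335 to 217247 had ranks of 196 and 161 and scores of 257 and 279, so its replicates were closer. Those on chromosome 4 had ranks of 281 and 176 (from 250132 to 251059) and of 165 and 313.5 (from 171227 to 172200). The remaining 12 gained loci ranked 211 or worse in both lists. With a minimum score of 200 the gained loci numbered 11. Without switchback replicate 1 or 2 they numbered 47 and 59, and without slow replicate 2, 110.

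**Figure D3:**
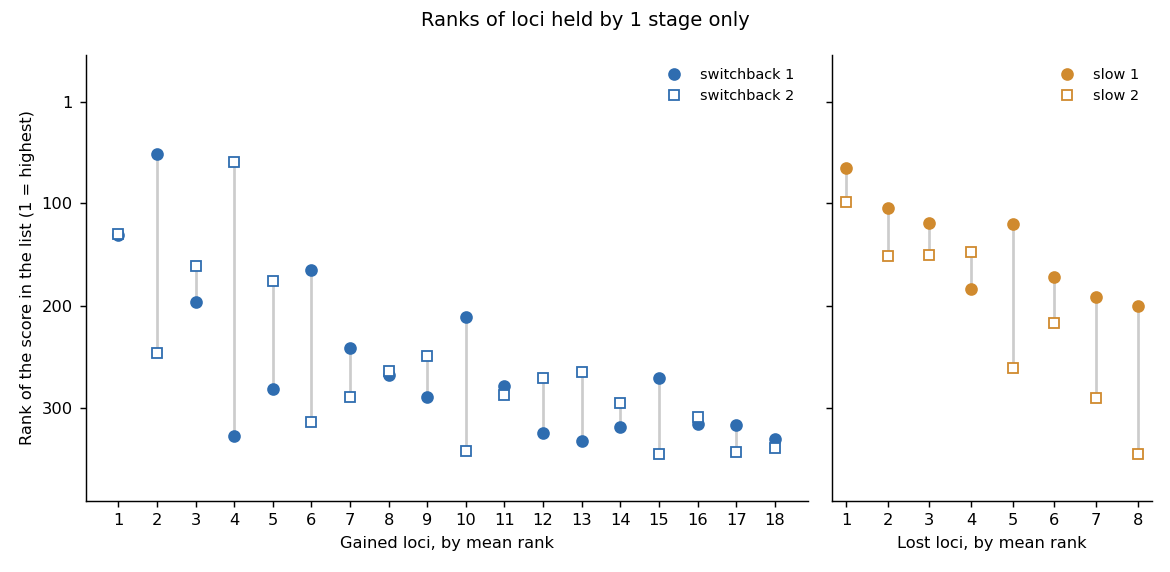
Within-list rank of the score (1 = highest, axis reversed) for the 18 gained loci in the 2 switchback lists and for the 8 lost loci in the 2 slow lists, each set ordered by mean rank, with a line joining the replicates. The gained locus in the first place has ranks of 131 and 130, most gained loci lie below rank 200 in both lists, and the lost locus in the first place has ranks of 66 and 99.

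Lost loci were fewer, and slow replicate 1 can give no rank past 203, so ranks of lost and gained loci are not compared. Their median rank was 146 of 203 in slow replicate 1 and 184 of 382 in slow replicate 2. Their median score was 195 in slow replicate 1, where all peaks had a median of 239, and 303 against 285 in slow replicate 2. A score of at least 200 in both lists was held by 4 of the 8. Over all peaks 137 of 203 and 299 of 382 reached 200. The leading lost locus lay on chromosome 2 from 788721 to 790081. It had scores of 330 and 460 and ranks of 66 and 99, in the higher-scoring 50% of both slow lists, and no kept locus lay within 52.2 kb of it. It stayed a lost locus when only the higher-scoring 50% of each list was used. The locus on chromosome 1 from 308248 to 309241 ranked 105 and 151. On the same chromosome, the locus from 1365878 to 1367104 ranked 119 and 150. A peak held by the other 3 lists but not by slow replicate 1 lay 0.216 kb before it. That peak ranked 253 in slow replicate 2 and 174 and 253 in switchback replicates 1 and 2.

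The other lost loci were lower in the lists. They lay on chromosome 4 from 21208 to 22191 (ranks 184 and 147) and from 338257 to 339334 (120 and 261), and on chromosome 3 from 618775 to 619694 (172 and 217). The last pair falls outside the rule for named loci and completes the list. It lay on chromosome 3 from 931815 to 932715 (191 and 290) and on chromosome 1 from 2196879 to 2197804 (200 and 344). As with the gained loci, 0 of the 8 overlapped an input region, where 17 of all 484 loci did, so the count tells little. Without slow replicate 1 the lost loci numbered 56, of which 48 were held by slow replicate 2 alone. Without switchback replicate 1 or 2 they numbered 14 and 19, and without slow replicate 2, 14.

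Most of the best-ranked regions of each list were kept loci. Among the 50 best-ranked loci of each list, 47 or 48 were kept loci, and 29 loci had a rank of 50 or better in every list. The locus on chromosome 1 from 2498738 to 2500311 ranked 4 and 4 at slow growth and 2 and 1 after the return. Next came the one on chromosome 1 from 1940788 to 1943075, with 2 and 5 against 11 and 9. Further loci on chromosome 1 ranked 10 and 14 against 3 and 3 (from 524806 to 526766) and 15 and 9 against 5 and 4 (from 1176734 to 1178353). On chromosome 4, the locus from 635462 to 637779 ranked 14 and 7 against 7 and 8. These 5 loci have the best mean rank over all 4 lists, so small shifts were built into their choice. Other loci of the top ranks, chosen after their values were seen, lay farther apart. On chromosome 1 the locus from 2502959 to 2505249 ranked first in 3 lists and 49 in switchback replicate 2, and that from 2695320 to 2697388 ranked 13 and 19 against 73 and 90. Scores may depend on the depth of a library, so stages were compared by rank and scores are given beside the ranks as a description.

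Within the kept loci, some regions ranked better and others worse after the return to fast growth. Both switchback ranks were better than both slow ranks at 40 of the 163 kept loci (24.5%), and both were worse at 31 (19%). At the other 92 loci the ranks of the stages overlapped. The 4 lists can be split into 2 and 2 in 6 ways, and 1 of the 6 gives each direction. If the lists were interchangeable, each direction would thus be met at about 1 locus in 6. The counts were not tested against that share. The change in mean rank had a median of 36.25 places in the first set, with a range of 2.5 to 121.5, and of −63 places in the second, with a range of −230 to −6.5. The balance between the directions depended on the scale of the ranks. With ranks divided by the length of the list 49 loci were higher and 11 lower, so that 81.7% of the calls were higher, against 56.3% with plain ranks and 55.7% (39 and 31) with ranks among the kept loci only. The division puts every locus of the short slow list further down, and by that construction adds to the higher set. Plain ranks have a limit the other way, since a kept locus could not rank past 203 in slow replicate 1. Kept loci reached ranks of 377 in slow replicate 2 and of 328 and 315 in switchback replicates 1 and 2. Without slow replicate 1 the counts were 115 higher and 62 lower of 255 kept loci, and without switchback replicate 2 they were 67 and 62 of 169. The balance turned without slow replicate 2, to 56 higher and 58 lower of 167, and without switchback replicate 1, to 58 and 61 of 174. Here a single list is left in a stage. Interchangeable lists would then meet each direction more often than at 1 locus in 6. These counts were not tested either.

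**Figure D4:**
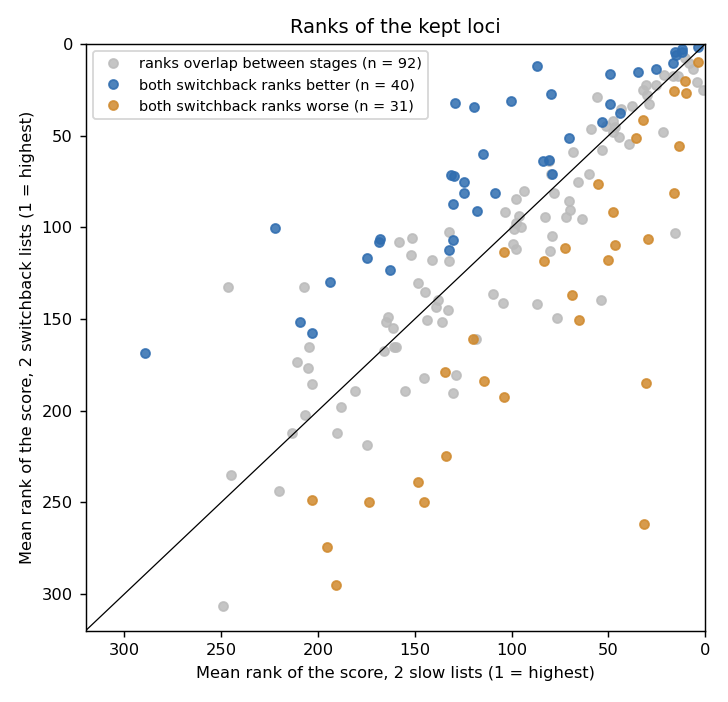
Mean within-list rank of the score in the 2 slow lists (horizontal) and the 2 switchback lists (vertical) for the 163 kept loci, both axes running towards rank 1. Blue loci (40) had both switchback ranks better than both slow ranks, orange loci (31) both worse, grey loci (92) overlapped, and the orange point farthest below the line has mean ranks of 31.5 and 261.5.

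The largest shift belonged to a region near the top of the slow lists and far down the switchback lists. The locus on chromosome 2 from 1584251 to 1586194 ranked 25 and 38 in the slow lists and 244 and 279 in the switchback lists. Its scores were 592 and 816 at slow growth and 220 and 184 after the return. The called peak was 1763 and 1880 bp long at slow growth and 817 and 786 bp long after the return, so the remaining peak had 0.44 of the slow length. The replicates of each stage were close to each other in rank and in length, and the gap between the stages was far wider than their spread. As the locus was chosen for its shift among loci without overlap, a wide gap in rank was largely built into its choice. Among the 163 kept loci its place was 25 and 38 against 151 and 159. Among the kept loci whose ranks did not overlap, this was the largest shift of mean rank on either scale. A further kept locus 24.0 kb before it, on chromosome 2 from 1559277 to 1560288, ranked 102 and 106 against 201 and 184, and a gained locus of ranks 315 and 308 lay between them.

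The next largest downward shift rested on a single library. On chromosome 4 from 299215 to 300908 the ranks were 29 and 32 at slow growth, 328 in switchback replicate 1 and 42 in switchback replicate 2. Only 0.486 kb further on, the locus from 301394 to 303200 ranked 16 and 17 at slow growth and 9 and 12 after the return. Adjacent open regions thus went different ways, by a wide margin only in switchback replicate 1. The other downward loci of the largest size were of middle rank. On chromosome 1 from 666490 to 667473 the ranks were 150 and 140.5 against 239 and 261, and from 2034189 to 2035206 they were 168 and 213 against 275 and 315. On chromosome 2 from 279272 to 280300 they were 138 and 130 against 219 and 230. Counted among the kept loci only, these last 3 shifts were of −31.25, −16.5 and −35 places. Most of their shift in the plain lists thus came from loci that are not kept, ranked between kept loci. Without the short list of slow replicate 1 the plain shifts were −109.5, −82 and −94.5 places.

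Upward shifts were led by loci on chromosome 4. The locus from 1286903 to 1287900 ranked 196 and 248 at slow growth and 107 and 94 after the return. At the locus from 1124525 to 1125941 the ranks were 87 and 152 against 39 and 30, and the peak length went from 992 and 985 bp to 1351 and 1417 bp. It was thus a region both better ranked and longer after the return, at 1.40 times the slow length. The locus on chromosome 3 from 210438 to 211405 stood at the end of both slow lists, with ranks of 202 of 203 and 377 of 382, and at 182 and 155 after the return. Counted among the kept loci only, the gain of the first of these loci was 66.5 places in place of 121.5, and that of the last 31.5 in place of 121. Without slow replicate 2 the last gained 33.5 places in the plain lists.

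Regions near a chromosome end were among those that ranked better. On chromosome 4 from 1805577 to 1806499, 9.21 kb from the last position of that chromosome in the lists, the ranks were 171 and 87 at slow growth and 40 and 24 after the return. On the same arm, the locus from 1751801 to 1752904 ranked 144 and 30 against 13 and 11. The slow replicates differed widely at both loci, by 67 and 92 places among the kept loci, while the switchback replicates were close. The leading gained locus of chromosome 4, described above, lay 5.14 kb from the latter. It was the only 1 of the 18 gained loci within 100 kb of an end. Of the 8 lost loci 1 lay there too, on chromosome 4 from 21208 to 22191. Over all 484 loci 35 (7.23%) did. Of the 15 kept loci within 100 kb of a chromosome end, 7 ranked higher in both switchback lists, 0 ranked lower and 8 overlapped. Farther inside the chromosomes 33 of 148 ranked higher and 31 lower. The 7 loci were on all 4 chromosomes, and 2 of them, those on chromosome 4, overlapped a wild-type input region. They include 2 pairs of neighbours. The pair on chromosome 1 lay 0.323 kb apart and gained only 9 and 6.5 places. The pair on chromosome 3, from 2173828 and from 2177221, gained 52 and 60.5 places. Over all kept loci 9 overlapped an input region, of which 5 ranked higher and 1 lower. The part of input signal in these shifts was not tested.

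Called regions were also shorter after the return. At the 160 kept loci with exactly 1 peak in each list, both switchback peaks were shorter than both slow peaks at 79 (49.4%) and longer at 6 (3.75%). The median length was 1050 and 1081.5 bp in the slow lists and 981 and 1004.5 bp in the switchback lists. The median ratio of switchback to slow length was 0.961. Since the whole lists were narrower as well, this was a small and general difference. The loci share the same libraries, so the count is a description without a test. It was larger at loci of worse rank. All 29 of the single-peak loci that ranked lower had shorter peaks in both switchback lists, with a median ratio of 0.889, against 10 of the 40 that ranked higher, with 0.994. Length and score come from the same reads and are not independent.

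**Figure D5:**
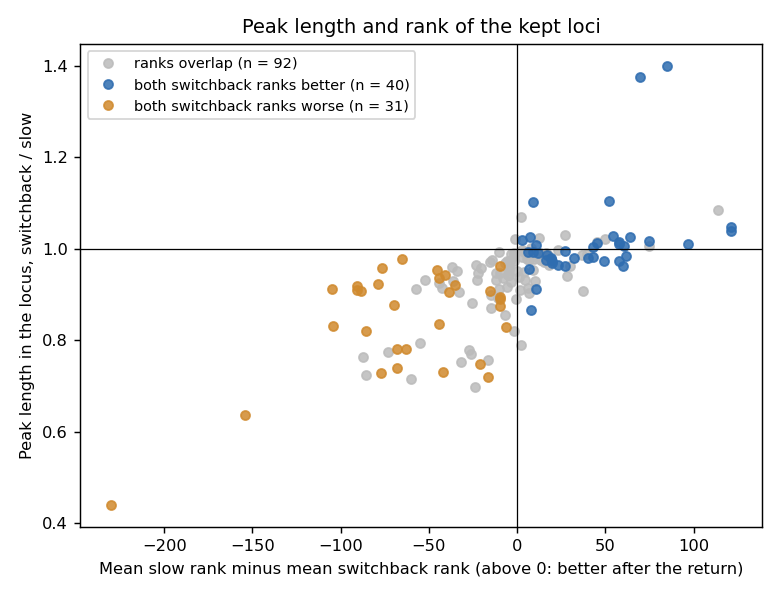
Ratio of the mean peak length in the switchback lists to that in the slow lists (vertical) against the change in mean rank (horizontal, above 0 for a better rank after the return) for the 163 kept loci. Orange loci with a worse rank lie below a ratio of 1, and the lowest point, at −230 places, has a ratio of 0.44.

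With the same number of peaks from every list, gained and lost loci were about as many, but most of the gained loci were others. The limit of 203 peaks fell between scores of 272.2 and 272.0 in slow replicate 2, 252 and 249 in switchback replicate 1, and 238 and 237 in switchback replicate 2, and it kept the whole of slow replicate 1. The 4 shortened lists formed 293 loci, of which 125 (42.7%) were kept, 14 (4.78%) gained and 10 (3.41%) lost. All 125 were also kept with all peaks. Only 2 of the 14 were gained with all peaks as well, those on chromosome 4 from 1745213 to 1746662 and on chromosome 1 from 216335 to 217247. The other 12 had a peak in slow replicate 2 at ranks between 204 and 313. Another 12 of the 18 gained loci were in no list's top 203. Of the 10 lost loci, 4 were lost with all peaks, 4 were kept and 2 were missing from switchback replicate 1 only. The 4 kept ones include the region on chromosome 2 from 1584251 to 1586194, which lay past the limit at ranks of 244 and 279. Among the 125 kept loci 35 (28%) ranked higher in both switchback lists and 21 (16.8%) lower. Here too, 1 of the 6 arrangements of the lists gives each direction.

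The lists of the initial fast stage were used only to ask where the gained, lost and kept loci had stood before. Over all 484 loci, 244 (50.4%) had no peak in either initial fast list and 167 (34.5%) had a peak in both. Among the 124 loci of a single list, which are mostly weak, 92.7% had none. Of the 18 gained loci 14 (77.8%) had none, 2 had a peak in 1 list and 2 in both. The leading gained locus on chromosome 4 had none, while that on chromosome 1 from 782826 to 784105 had ranks of 76 and 74. Of the 8 lost loci 4 (50%, close to the share over all loci) had no peak there, 3 had a peak in 1 list and 1 in both. Most kept loci, 129 of 163 (79.1%), were in both initial fast lists. The region on chromosome 2 from 1584251 to 1586194 had ranked 24 and 55 at the initial fast stage. That on chromosome 4 from 1805577 to 1806499 had ranked 136 and 183 there. Both regions were chosen for their rank shift, and plain ranks in lists of unequal length are given side by side without a comparison. The initial fast lists held fewer peaks than 3 of the 4 lists compared here, and an absent peak there was not tested as a closed region.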

How the data were processed

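The authors sequenced paired-end reads of 50 bp, mapped them to the CBS7435 genome with BWA (0.7.13; SAMtools 1.3, per the labels), removed reads of mapping quality under 20, and per the methods called peaks with MACS2 at a p-value cut-off of 1e-10 on pooled replicates against input. The deposited lists hold the peaks of 1 library each, with names in the style of the first MACS version. The deposited score in column 5 was read as 10 times the −log10 of a p-value from that style alone, and was used for ranks within a list (ties averaged, best peak of a locus). On that reading the lowest scores, between 150.2 and 150.6, stand for a stricter limit than 1e-10. The limit used for the deposited lists is thus not known. The score of the input regions was not used.

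Groups came from the labels. Peaks sharing 1 bp were merged into loci. Chromosome ends were taken as the highest coordinate in the wild-type lists and the wild-type input list, and position 1. Quantities per library were compared on the log2 scale by exact two-sided permutation over libraries, with p-values adjusted by Benjamini-Hochberg. Loci named were the 6 gained, 6 lost and 5 kept loci of best mean rank, and the 5 with the largest rank shift in each direction without overlap; neighbours, loci near ends and the remaining lost loci were chosen after their values were seen. The members and lists were chosen with earlier results of these data known. The alternatives were the same number of peaks from each list, the higher-scoring 50%, a minimum score of 200, removal of peaks over input regions, merging within 200 bp, presence over 50% of a locus or in either replicate, other ranks, a replicate block and leaving out each library. The counting was tested on simulated lists. The 5 lists of the strain without FLO8 and its input were not used here. Python 3.11.15, pandas 2.3.3, numpy 2.4.6 and scipy 1.17.1 were used.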

Additional observations from a re-analysis of the deposited data

How the results depend on the processing

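Counts of gained, lost and kept loci changed by no more than 1.5 times with the same number of peaks, without peaks over input regions, with merging within 200 bp and with presence over 50% of a locus. With the higher-scoring 50% of each list, 5 loci were lost, 78 kept, 19 ranked higher and 16 lower. A minimum score of 200 left 11 gained, and presence in either replicate gave 88 gained, 62 lost and 334 kept. Ranks divided by the length of the list gave 11 lower. The covered length changed sign, to −0.12 on the log2 scale, with the same number of peaks from each list (exact permutation p = 0.333). Leaving out each library in turn gave 22 to 110 gained, 14 to 56 lost, 167 to 255 kept, 56 to 115 ranked higher and 58 to 62 lower. The log2 difference then ran from −0.12 to 0.79 for peak number, from −0.21 to 0.53 for covered length and from −0.17 to −0.055 for median width. The negative values of the first 2 arose without slow replicate 1, and the cause was not tested.

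The labels give both stages the replicate numbers 1 and 2 but no shared culture. Deviations of same-numbered libraries had a correlation of −0.092 over the ranks of the kept loci and −0.041 over presence, and 2 pairs are too few to pair on. With the replicate block, number 1 alone had 181 gained and 29 lost loci, and number 2 alone 55 gained, 92 lost and 289 kept. Under that block 44 of the 163 kept loci ranked higher and 45 lower. Within the block 1 of 4 arrangements gives each direction, so these counts are not set beside the main ones, and they were not tested. The differences in peak number and covered length (0.33 and 0.16, exact permutation p = 1) and in width (−0.11, exact permutation p = 0.5, the smallest possible) stayed as they were.

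Depth is unknown, and a peak just under the calling limit is counted as absent.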

Other observations

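Some strong regions differed more between the replicates of a stage than between stages. These loci were chosen after their values were seen. The locus on chromosome 1 from 196972 to 199011 ranked 5 and 26 in the slow lists and 6 in switchback replicate 2, but 200 in switchback replicate 1, where the called peak was 885 bp long against 2040 bp in the other replicate. On chromosome 1 from 2812852 to 2814466 the replicates were the other way round, with ranks of 45 and 254 after the return and of 75 and 78 at slow growth. A locus on chromosome 3 from 364215 to 366060 ranked 32, 40 and 38 in both slow lists and switchback replicate 1 and had no peak in switchback replicate 2. Between the switchback replicates 20 of the 163 kept loci differed by 50 or more places among the kept loci, and between the slow replicates 12 did. Across stages 21 to 24 loci did so in each of the 4 comparisons.

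Loci held by a single list were mostly weak. The best-ranked of the 48 loci of slow replicate 2 alone lay on chromosome 3 from 1399702 to 1400969, at rank 105 of 382 with a score of 439. The best of the 41 loci of switchback replicate 1 alone ranked 209 of 356 and the best of the 29 of switchback replicate 2 alone 202 of 346. Slow replicate 1 alone held 6 loci, with ranks of 107 to 175 of 203.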
